A study of Metroxylon sagu with 6 samples.

Results

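Metallothionein-like unigenes were examined in leaf libraries of sago palm (*Metroxylon sagu*). In the absence of a genome, the transcripts were assembled from the reads, and each assembled sequence is called a unigene. A unigene was counted as metallothionein-like where the name of its best match in SwissProt, Nr or Nt holds the word metallothionein. SwissProt and Nr are protein databases, and Nt is a nucleotide database. The rule gave 17 of the 99933 unigenes listed in the 6 libraries. In the files every identifier ends in _All, and this ending is left out below.

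Metallothioneins are small proteins rich in cysteine, whose thiol groups bind copper, zinc and other metals. In plants they are known for buffering copper and zinc and for a part in the protection against reactive oxygen species, and they are sorted into types by the way their cysteines are arranged. In the plants where the types have been compared, type 2 transcripts are found mainly in leaves and shoots, and type 3 transcripts in leaves and in ripening fruit.

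The tested palms were 3 non-trunking palms (SN7, SN8 and SN9), which form no trunk. They were set against 3 trunking palms (ST1, ST4 and ST5), the control of the study. Leaf RNA of each palm gave 1 library, all palms grew on peat soil in 1 plantation, and no genotype or age is given for these palms. The palms were selected in the plantation by their form, and the non-trunking and trunking palms were collected at different places, so phenotype and place cannot be told apart.

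The libraries held between 17927176 and 18492907 expected counts, the fragments that the authors' quantification assigned to the unigenes. Leaf markers were high in both groups, since 54 unigenes matched the small chain of Rubisco, Rubisco activase or chlorophyll-binding proteins and summed to between 38423 and 74007 normalised counts scaled to a common library size (CPM) in non-trunking palms and between 26785 and 44938 CPM in trunking palms. For phloem, 11 markers summed to between 244 and 338 CPM in non-trunking palms and between 142 and 284 CPM in trunking palms. The most abundant phloem marker, CL4505.Contig1, was close to equal, with means of 83.8 CPM in non-trunking and 83.9 CPM in trunking palms. CL4505.Contig3 averaged 27.2 CPM in non-trunking and 17.6 CPM in trunking palms, without overlap. For lignified vascular tissue, 10 markers summed to between 29.9 and 84.7 CPM in non-trunking palms and between 28.0 and 38.2 CPM in trunking palms. The most abundant of them, the cellulose synthase unigene CL8393.Contig1, averaged 47.0 CPM in non-trunking and 27.1 CPM in trunking palms, with overlapping groups. Another cellulose synthase unigene, CL9547.Contig3, went the other way, with means of 0.310 CPM in non-trunking and 0.800 CPM in trunking palms. For senescing leaves, 32 markers summed to between 284 and 598 CPM in non-trunking palms and between 231 and 367 CPM in trunking palms. These markers did not all go 1 way either. The pheophytinase Unigene16180 averaged 103 CPM in non-trunking and 81.4 CPM in trunking palms, with overlapping groups. A second pheophytinase, Unigene19029, averaged 10.4 CPM in non-trunking and 21.0 CPM in trunking palms, without overlap. No unigene was named as a casparian strip protein, a marker of roots. The part of these tissues in the values of the metallothionein-like unigenes was not tested. In a bulk library, fewer cells of a type and less RNA per cell cannot be told apart.

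The names of the 17 unigenes rest on unequal evidence. SwissProt, Nr and Nt all named 7 of them as metallothionein, SwissProt and Nt named 1 more, and 9 carried the word in Nt alone. In 4 of the 17, the best Nt match was a metallothionein-like mRNA of sago palm itself, called MET here, for which no type is given. A further 10 matched type 2 proteins or mRNAs, mostly of oil palm and date palm, and 3 were named type 3 in SwissProt. The 17 unigenes came from 12 clusters or single unigenes, so contigs of 1 cluster are not separate genes by this evidence. Their lengths ran from 200 to 2138 nt. A filter on low counts left 14 of the 17 for testing, of which 3 had the MET match, 9 were type 2 and 2 were type 3.

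The most abundant unigene with this name was CL5777.Contig3_All (1994 nt), written CL5777.Contig3 from here on. It had the MET mRNA of sago palm as its Nt match, while Nr and SwissProt named it a mannan endo-1,4-beta-mannosidase 2, an enzyme that cuts the mannan chains of cell walls. Its FPKM, the fragments per kilobase of unigene scaled by the authors for the mapped fragments of the library, was 6355, 3706 and 4470 in SN7, SN8 and SN9, and 4972, 5919 and 2623 in ST1, ST4 and ST5. By FPKM it ranked second in each of the 3 non-trunking libraries, while its ranks were 1, 2 and 4 in ST1, ST4 and ST5. The files give 1 count for the whole unigene, so its fragments cannot be divided between the metallothionein match and the mannosidase match. The other unigene that Nr named a mannan endo-1,4-beta-mannosidase 2, Unigene5158, had at most 3.19 FPKM in non-trunking palms and at most 0.56 FPKM in trunking palms.

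Normalised with edgeR's TMM factors, CL5777.Contig3 had 15011, 7181 and 7738 CPM in SN7, SN8 and SN9, against 9988, 10481 and 5151 CPM in ST1, ST4 and ST5. The highest level was in a non-trunking palm and the lowest in a trunking palm, and the other 4 lay between them with the groups mixed. The means were 9977 ± 4369 CPM in non-trunking palms and 8540 ± 2945 CPM in trunking palms (SD, n = 3 each). The log2 fold change, taken as non-trunking minus trunking here and below, was 0.22 with a standard error (SE) of 0.56 (adjusted p = 0.929, edgeR's quasi-likelihood test with Benjamini-Hochberg adjustment over all unigenes tested). The exact permutation test over the 6 libraries gave p = 0.8 (two-sided), where 0.1 is the smallest p that 3 palms against 3 allow. Without SN7 the log2 fold change was -0.20, and without ST5 it was -0.04, so the direction turned without either palm.

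**Figure D1:**
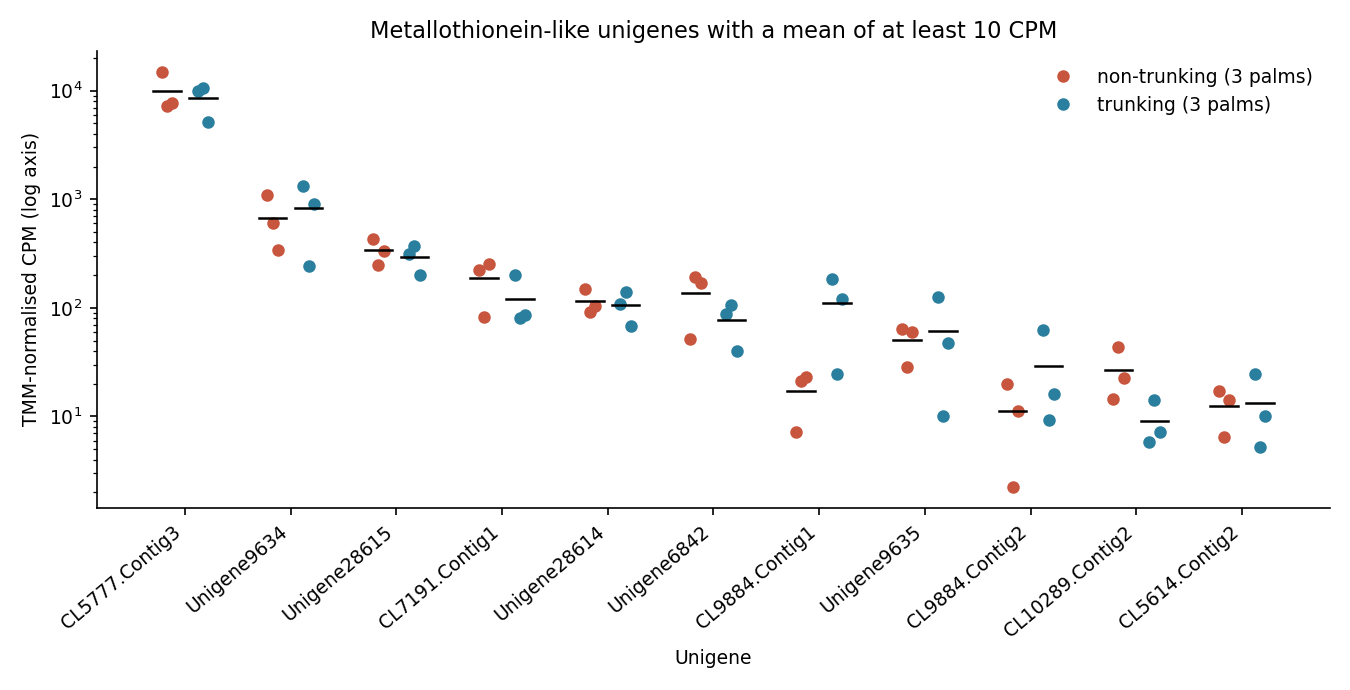
TMM-normalised CPM on a log axis for the 11 metallothionein-like unigenes with a mean of at least 10 CPM, ordered by their mean CPM over the 6 libraries. Each point is 1 palm, non-trunking on the left and trunking on the right of each unigene, and the line is the mean of 3 palms. The points of the groups separate for CL9884.Contig1 and CL10289.Contig2 and overlap for the other 9.

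The other unigenes with the MET match were far less abundant. Unigene6842 (1817 nt), named here after its values were seen, had 52.0, 190.5 and 171 CPM in SN7, SN8 and SN9, against 87.9, 106 and 39.7 CPM in ST1, ST4 and ST5. SN8 and SN9 lay above all trunking palms and SN7 lay below ST1 and ST4, so the groups overlapped. Its log2 fold change was 0.83 (SE 0.56, adjusted p = 0.690 in the same test). SN7, the library where CL5777.Contig3 was highest, thus held the lowest non-trunking level of Unigene6842, although both unigenes have the same Nt match. CL5777.Contig1 (215 nt) lay between 1.00 and 2.80 CPM in non-trunking palms and between 0.495 and 1.63 CPM in trunking palms, and CL5777.Contig2 (369 nt) was listed only in ST1 and ST5, at 1.04 and 0.48 FPKM.

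The most abundant unigene that all 3 databases named as metallothionein was Unigene28615 (499 nt), a match to metallothionein-like protein 2A. Its FPKM was 804, 573 and 864 in SN7, SN8 and SN9, against 692, 919 and 455 in ST1, ST4 and ST5, and CL5777.Contig3 exceeded it in every library by a factor of 5.17 to 7.90 in FPKM. That factor rests on the whole assembled length of CL5777.Contig3 (1994 nt), which carries the metallothionein and the mannosidase match. In CPM, Unigene28615 had 428, 249 and 337 in SN7, SN8 and SN9, against 311, 370 and 199.9 in ST1, ST4 and ST5. The groups overlapped, and the log2 fold change was 0.20 (SE 0.35, adjusted p = 0.889).

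Unigene28614 (794 nt), named type 2 in Nt alone, had 149.7, 91.0 and 103 CPM in SN7, SN8 and SN9, against 107, 140.4 and 67.6 CPM in ST1, ST4 and ST5. Its log2 fold change was 0.12 (SE 0.34, adjusted p = 0.938). As in CL5777.Contig3 and Unigene28615, the lowest level was in ST5, in CPM and in FPKM. The highest CPM of all 3 was in SN7, while by FPKM Unigene28614 and Unigene28615 were highest in ST4, at 209 and 919. The levels of Unigene28615 varied by a factor of 2.14 between the lowest and the highest library and those of Unigene28614 by 2.21, less than the other 12 tested unigenes did.

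Unigene9634 (2138 nt) was named type 2 in SwissProt and Nt, and Nr matched it to an uncharacterized protein of date palm. Its levels were 1088, 602 and 339 CPM in SN7, SN8 and SN9, against 1324, 245 and 910.0 CPM in ST1, ST4 and ST5. The trunking palms held both the highest and the lowest level, and the non-trunking palms lay within that range. The log2 fold change was -0.29 (SE 0.69, adjusted p = 0.925). By length-scaled level it was the third most abundant of the 17, with a mean FPKM of 299.9 ± 124 in non-trunking palms and 391 ± 245 in trunking palms (SD, n = 3 each). That place rests on its whole assembled length, which carries the metallothionein match and the match to the uncharacterized protein. In CPM its mean over the 6 libraries was 751, above the 316 of Unigene28615. Unigene9634, Unigene9635, Unigene28614 and Unigene4973 shared the same type 2 mRNA of oil palm as their best Nt match.

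Unigene9635 (769 nt), a match to protein 2A, had 64.2, 28.5 and 60.2 CPM in SN7, SN8 and SN9, against 126, 10.1 and 47.1 CPM in ST1, ST4 and ST5. Here too the trunking palms held the highest and the lowest level. The log2 fold change was -0.26 (SE 0.81, adjusted p = 0.948). Its expected counts and those of Unigene9634 were whole numbers in 0 of 6 libraries (within 0.005), as RSEM gives where it divides fragments between unigenes that they match equally, so the levels of both depend on that division. The same holds for CL5614.Contig2, whole in 0 of 6 libraries, and for Unigene28615, whole in 1 of 6.

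CL7191.Contig1 (710 nt), a further match to protein 2A, had 225, 82.6 and 252 CPM in SN7, SN8 and SN9, against 199, 81.1 and 85.1 CPM in ST1, ST4 and ST5. SN7, SN9 and ST1 were high and the other 3 palms low, so the split did not follow the phenotype. The log2 fold change was 0.62 (SE 0.54, adjusted p = 0.757). CL5614.Contig2 (255 nt), named type 2 by all 3 databases, had 17.0, 6.42 and 14.2 CPM in SN7, SN8 and SN9, against 24.7, 5.24 and 10.2 CPM in ST1, ST4 and ST5. The groups overlapped, and the log2 fold change was -0.09 (SE 0.61, adjusted p = 0.978).

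CL10289.Contig2 (997 nt) was 1 of 2 tested metallothionein-like unigenes, of 14, whose groups did not overlap in normalised CPM, which held for 17.3% of all tested unigenes. Nt alone named it, as a protein 2A mRNA of pineapple. It had 14.4, 43.6 and 22.7 CPM in SN7, SN8 and SN9, against 5.80, 14.3 and 7.26 CPM in ST1, ST4 and ST5. The lowest non-trunking palm, SN7, stood just above the highest trunking palm, ST4. In FPKM the order of these palms was the other way, with 12.6 in SN7 and 16.7 in ST4, so the groups overlapped on that scale. The means were 26.9 ± 15.1 CPM in non-trunking palms and 9.12 ± 4.54 CPM in trunking palms (SD, n = 3 each). The log2 fold change was 1.56 (SE 0.51, adjusted p = 0.413 with edgeR). The second contig of its cluster is not named a metallothionein and holds most of the cluster's counts, since both together averaged 2906 CPM in non-trunking palms and 2067 CPM in trunking palms, so the log2 fold change of 0.49 of that sum is not a value of CL10289.Contig2.

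The type 3 unigenes CL9884.Contig1 and CL9884.Contig2 had lower mean levels in non-trunking palms, though for the second contig this rested on ST1. CL9884.Contig1 (620 nt), named type 3 in SwissProt and metallothionein-like in Nr and Nt, had 7.12, 21.3 and 23.3 CPM in SN7, SN8 and SN9, against 183, 24.7 and 122 CPM in ST1, ST4 and ST5. All 3 non-trunking palms lay below all 3 trunking palms, with ST4 close to SN9 and far below ST1 and ST5. The means were 17.2 ± 8.81 CPM in non-trunking palms and 109.8 ± 79.8 CPM in trunking palms (SD, n = 3 each), and the fitted level was lower by a factor of 6.36 in non-trunking palms. This difference was -2.67 on the log2 scale (SE 0.78), and it missed the threshold of 0.05 in edgeR's quasi-likelihood test, where the adjusted p was 0.367. On the same counts the adjusted p was 0.0143 in DESeq2's Wald test and 0.0461 in edgeR's likelihood ratio test, so the call depends on the test.

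CL9884.Contig2 (730 nt), with the same names, had 19.9, 2.23 and 11.2 CPM in SN7, SN8 and SN9, against 62.9, 9.36 and 15.9 CPM in ST1, ST4 and ST5. SN7 exceeded ST4 and ST5, so the groups overlapped, and the log2 fold change was -1.41 (SE 0.93, adjusted p = 0.679). Without ST1 it was -0.19 (adjusted p = 0.986 with edgeR). The expected counts of each contig were whole in 2 of 6 libraries, while their sum was whole in 6 of 6. The share of the cluster's counts given to CL9884.Contig1 was 26.4%, 90.5% and 67.5% in SN7, SN8 and SN9, against 74.4%, 72.6% and 88.4% in ST1, ST4 and ST5.

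The sum of both contigs does not depend on that division. It was 27.0, 23.5 and 34.5 CPM in SN7, SN8 and SN9, against 246, 34.1 and 138 CPM in ST1, ST4 and ST5. The 3 non-trunking palms and ST4 held similar sums, ST1 and ST5 held larger ones, and SN9 stood just above ST4, so the groups overlapped. With counts summed over clusters before the fit, the log2 fold change was -2.30 (SE 0.65, adjusted p = 0.292 with edgeR). The third type 3 match, Unigene56940 (200 nt), had at most 0.80 FPKM in any library and was not tested.

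**Figure D2:**
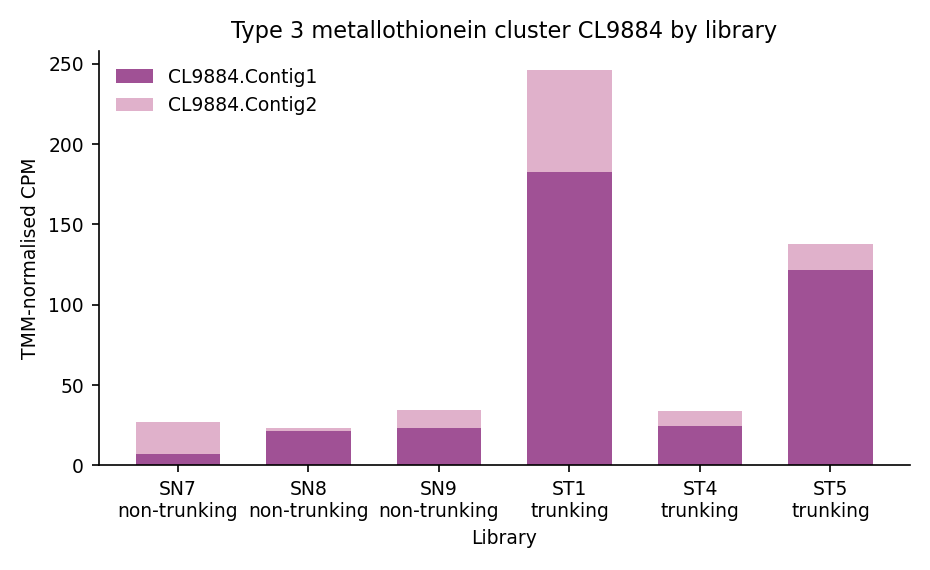
TMM-normalised CPM of the 2 contigs of the type 3 cluster CL9884, stacked by library, with the non-trunking palms on the left and the trunking palms on the right. The stacks reach 246 CPM in ST1 and 138 CPM in ST5, and lie between 23.5 and 34.5 CPM in the other 4 libraries, ST4 included.

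The remaining type 2 unigenes were rare. Unigene4973 (350 nt) lay between 2.18 and 3.31 CPM in non-trunking palms and between 0.712 and 3.24 CPM in trunking palms. CL5614.Contig1 (449 nt) lay between 0.133 and 2.02 CPM in non-trunking palms and between 0.165 and 0.814 CPM in trunking palms. CL7191.Contig2 (656 nt) had at most 1.33 CPM in any library and was not tested.

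Over the 14 tested unigenes the median log2 fold change was 0.21, against 0.02 for all 45928 tested unigenes. The median of the metallothionein-like unigenes was -0.0045 without SN7, -0.017 without ST5, 0.16 without SN9, 0.42 without SN8, 0.38 without ST4 and 0.70 without ST1. Its sign and size thus changed with the palm left out. The filter was rerun each time, so these medians are over 15 unigenes without SN7, SN8, ST1 or ST5 and over 14 without SN9 or ST4. In edgeR's quasi-likelihood test an adjusted p under 0.05 was reached by 0 of the 14 and by 0% of all tested unigenes, with 0.161 as the smallest adjusted p. Without adjustment, p was under 0.05 and the level higher in non-trunking palms for 1 of the 14 (CL10289.Contig2) and 5.43% of all tested unigenes. With the level lower, this held for 1 of the 14 (CL9884.Contig1) and 4.43% of all. The groups did not overlap in 2 of the 14, where this held for 17.3% of all tested unigenes. DESeq2 called 1 of the 15 that it tested and 2.22% of all it tested, and edgeR's likelihood ratio test called 1 of the 14 and 1.68% of all, in both cases CL9884.Contig1. limma on log2(FPKM + 1) called 0 of the 14 and 0.00904% of all tested.

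**Figure D3:**
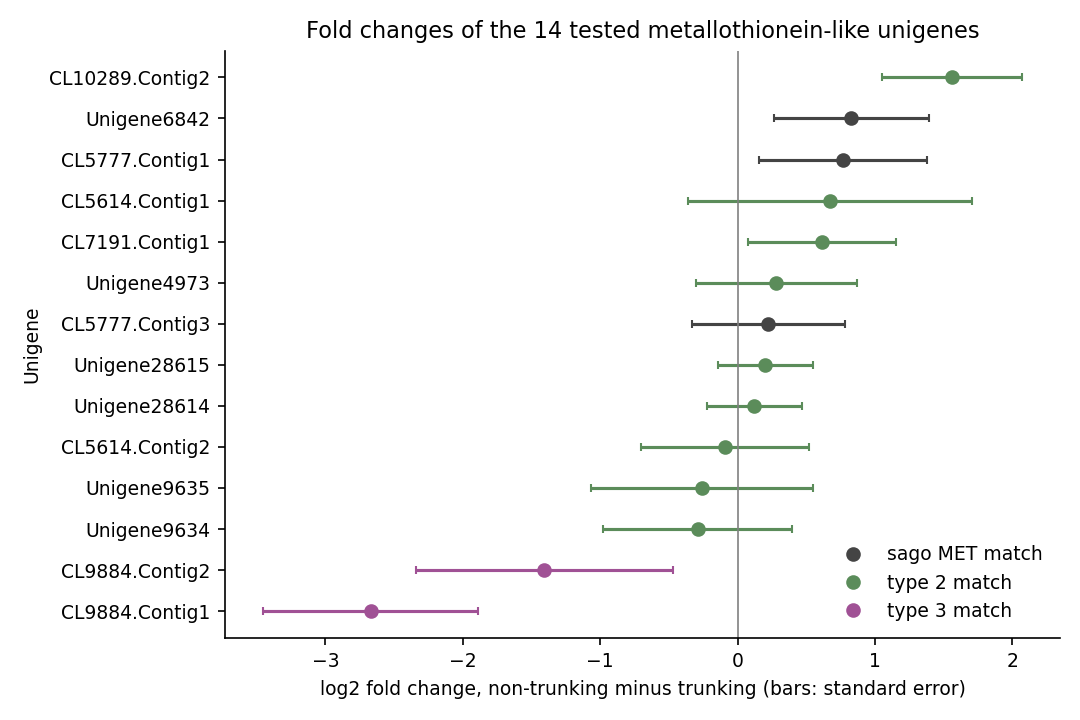
Log2 fold change, non-trunking minus trunking, of the 14 tested metallothionein-like unigenes from edgeR's quasi-likelihood fit, with bars of 1 standard error and colours for the kind of match. Values run from -2.67 for CL9884.Contig1 to 1.56 for CL10289.Contig2, and 9 of the 14 are above 0.

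As a share of all expected counts, the 17 unigenes took 1.40%, 0.848% and 1.02% of SN7, SN8 and SN9, against 1.19%, 1.26% and 0.655% of ST1, ST4 and ST5. The groups overlapped. The highest share was in SN7 and the lowest in ST5, as for CL5777.Contig3, which held most of the counts of the 17. This order was not shared by the other 16 unigenes together. Without CL5777.Contig3, the highest share was in ST1 (0.234%) and the lowest in ST4 (0.111%), both trunking palms, so the groups overlapped here too. The 4 unigenes with the MET match held between 86.7% and 88.2% of the counts of the 17 in non-trunking palms and between 78.0% and 92.2% in trunking palms. The 10 type 2 unigenes took 0.163%, 0.110% and 0.127% of SN7, SN8 and SN9, against 0.202%, 0.0952% and 0.131% of ST1, ST4 and ST5. The 3 type 3 unigenes took 0.00222%, 0.00234% and 0.00387% of SN7, SN8 and SN9, against 0.0236%, 0.00375% and 0.0135% of ST1, ST4 and ST5. ST4 lay below SN9, so the groups overlapped.

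**Figure D4:**
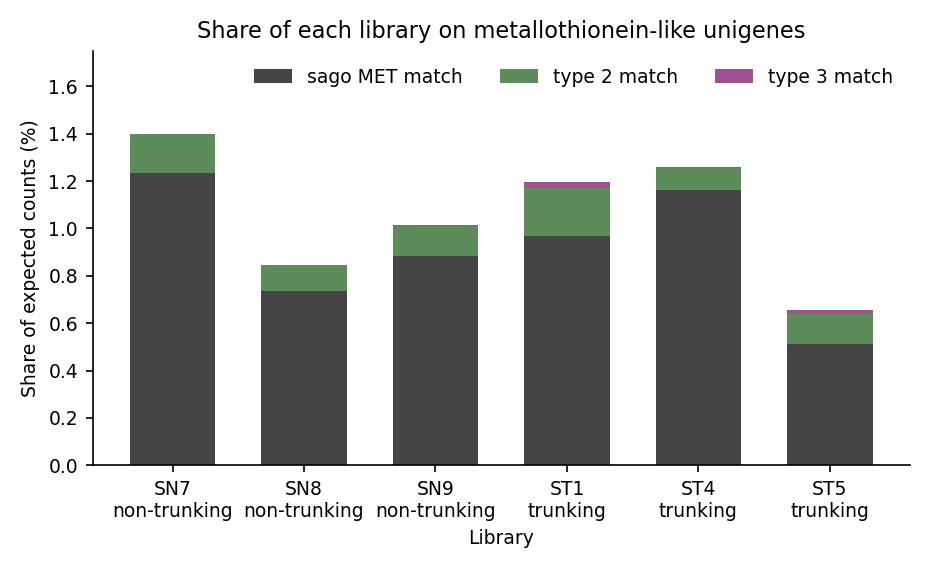
Share of each library's expected counts, in percent, on the metallothionein-like unigenes, stacked by the kind of match, with the non-trunking palms on the left and the trunking palms on the right. Totals run from 0.655% in ST5 to 1.40% in SN7, and most of each bar is the sago MET match, nearly all of it CL5777.Contig3.

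The abundant unigenes fell into patterns over the palms that differed from the phenotype. On log2(CPM + 0.5) over the 6 libraries, Pearson's r was 0.97 between Unigene28615 and Unigene28614, 0.95 between CL5777.Contig3 and Unigene28614, and 0.93 between CL5777.Contig3 and Unigene28615. A second set, lowest in ST4 and highest in ST1, joined Unigene9635 and CL5614.Contig2 (r = 0.95), Unigene9635 and Unigene9634 (r = 0.77), and Unigene9634 and CL5614.Contig2 (r = 0.69). CL5614.Contig2 also had r = 0.84 with CL7191.Contig1 and r = 0.82 with CL9884.Contig2, which did not have both of these extremes, so the set has no sharp border. Apart from these patterns, the less abundant CL10289.Contig2 ran opposite to the type 3 contigs CL9884.Contig2 (r = -0.89) and CL9884.Contig1 (r = -0.69). The groups of CL10289.Contig2 and CL9884.Contig1 did not overlap in CPM and differed in opposite directions, so their negative r partly restates that difference. These values describe 6 libraries with shared scaling factors, and unigenes that share fragments are not independent of each other.

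**Figure D5:**
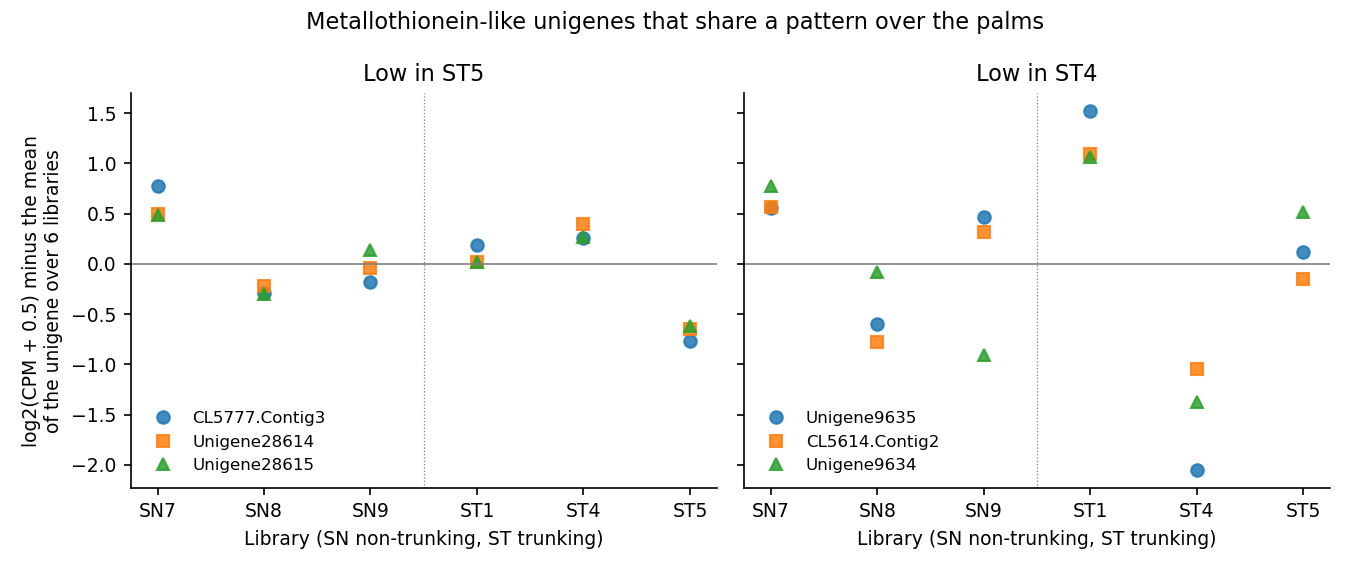
Level of 6 metallothionein-like unigenes in each library, as log2(CPM + 0.5) minus the mean of the unigene over the 6 libraries, with non-trunking palms left of the dotted line and trunking palms right of it. CL5777.Contig3, Unigene28614 and Unigene28615 are lowest in ST5, and Unigene9635, CL5614.Contig2 and Unigene9634 are lowest in ST4 and highest in ST1.

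Outside its cluster, the 5 unigenes most like CL5777.Contig3 were sought among 16338 tested unigenes with a mean of at least 10 CPM. They were CL178.Contig2, a methionine tRNA ligase of organelles (r = 0.993), CL8613.Contig2, the mitochondrial import subunit Tim13 (r = 0.990), CL3561.Contig1, a subunit of the transcription factor TFIID (r = 0.988), Unigene17296, the autophagy-related protein 101 (r = 0.987), and Unigene20172, a subunit of photosystem I (r = 0.987). Unigene20172 had 1406, 879 and 949 CPM in SN7, SN8 and SN9, against 1030, 1075 and 646 CPM in ST1, ST4 and ST5. Between its lowest and highest library it varied by a factor of 2.18, and CL5777.Contig3 by 2.91. The other 4 varied less, by factors from 1.41 to 1.62, so they share the order of the libraries more than the size of the change. Scaled by library size alone, an alternative chosen after seeing the data, Unigene20172 had r = 0.963 and the other 4 had r between 0.742 and 0.899, and 0 of the 5 were among the first 5. The TMM factors ran from 0.824 in SN7 to 1.13 in SN9. Of the metallothionein-like unigenes themselves, Unigene28614 ranked 49 and Unigene28615 ranked 100 by this likeness.

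Other genes of metal binding and of protection against oxygen radicals were set beside them from lists of names. For the synthesis of metal chelators (phytochelatin synthase, glutathione synthetase and glutamate--cysteine ligase), 15 unigenes matched and 10 were tested, with 2 higher and 1 lower at an unadjusted p under 0.05, and the groups did not overlap in 4 of the 10. Here and in the lists below, these counts stand against 5.43% higher, 4.43% lower and 17.3% not overlapping of all tested unigenes. The word nicotianamine synthase was found in 0 unigenes. The median of this list was 0.02. CL2922.Contig2, a glutamate--cysteine ligase, the first enzyme of glutathione synthesis, had 41.8, 53.8 and 45.0 CPM in SN7, SN8 and SN9, against 29.8, 32.1 and 33.1 CPM in ST1, ST4 and ST5. Its groups did not overlap, with a log2 fold change of 0.56 (SE 0.19, adjusted p = 0.420). CL7171.Contig1, a glutathione synthetase, was close to equal between the groups, at 58.0 ± 7.37 CPM in non-trunking palms and 57.3 ± 8.37 CPM in trunking palms (SD, n = 3 each).

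Of the copper chaperones, which carry copper to the proteins that need it, 11 unigenes matched and 9 were tested, with 1 higher and 0 lower at an unadjusted p under 0.05, 2 of the 9 not overlapping and a median of 0.21. Unigene29399, a match to the copper chaperone ATX1, had 148, 60.9 and 75.3 CPM in SN7, SN8 and SN9, against 45.4, 55.2 and 52.0 CPM in ST1, ST4 and ST5. The groups did not overlap, with a log2 fold change of 0.89 (SE 0.36, adjusted p = 0.487), and 0.42 without SN7. Its highest level was in SN7, where CL5777.Contig3 was also highest.

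Heavy metal-associated isoprenylated plant proteins carry a metal-binding domain and a lipid anchor. They matched 58 unigenes, of which 35 were tested, with 3 higher and 0 lower at an unadjusted p under 0.05, 2 of the 35 not overlapping and a median of 0.07. CL2002.Contig2, a match to member 39 of that family, had 2.06, 16.4 and 2.91 CPM in SN7, SN8 and SN9, against 0.797, 0.763 and 1.26 CPM in ST1, ST4 and ST5. SN8 stood far above the other palms, and the log2 fold change was 2.91 (SE 0.86, adjusted p = 0.372, against 0.0308 in DESeq2). Without SN8 the log2 fold change was 1.40 (adjusted p = 0.368 with edgeR). The most abundant, CL9310.Contig1, averaged 187 ± 86.7 CPM in non-trunking palms and 277 ± 43.8 CPM in trunking palms (SD, n = 3 each), with a log2 fold change of -0.56 (SE 0.40, adjusted p = 0.699 with edgeR).

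Ferritin, the iron store of plastids, matched 9 unigenes, of which 8 were tested, with 0 at an unadjusted p under 0.05, 0 of the 8 not overlapping and a median of -0.23. CL4188.Contig3, the most abundant, averaged 35.0 ± 10.8 CPM in non-trunking palms and 28.8 ± 20.6 CPM in trunking palms, and CL4188.Contig1, with the smallest p, averaged 9.40 ± 5.51 CPM in non-trunking palms and 16.3 ± 3.23 CPM in trunking palms (SD, n = 3 each). Superoxide dismutases, which remove superoxide, matched 98 unigenes, of which 36 were tested, with 1 higher and 2 lower at an unadjusted p under 0.05, 6 of the 36 not overlapping and a median of 0.15. Among them are 5 copper chaperones of superoxide dismutase, which the list of copper chaperones also holds. Unigene24115, a copper and zinc enzyme, had 149, 114 and 139 CPM in SN7, SN8 and SN9, against 104, 101 and 75.7 CPM in ST1, ST4 and ST5 (log2 fold change 0.52, adjusted p = 0.541). CL8107.Contig1, an iron enzyme of plastids, averaged 3.87 ± 0.620 CPM in non-trunking palms and 6.72 ± 0.916 CPM in trunking palms (SD, n = 3 each). Its groups did not overlap, and the log2 fold change was -0.80 (adjusted p = 0.423). In the 5 lists, edgeR's quasi-likelihood test called 0 unigenes after adjustment.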

How the data were processed

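Sequencing of leaf RNA from 3 non-trunking and 3 trunking palms was done on the BGISEQ-500. Trinity was used by the authors for the assembly, TGICL for clustering its contigs, Bowtie2 for mapping the reads back and RSEM for the expression estimates, and for none of them is a version given in the sources used here. The deposited expected counts are estimated counts of fragments per unigene without normalization. The deposited FPKM values were scaled by the authors for length and library total. The lowest FPKM listed was 0.01, and a unigene not listed in a library was set to 0. Depth ran from 17927176 to 18492907 expected counts per library, so the spread between palms, not counting error, sets the precision of abundant unigenes.

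The files were joined in pandas 2.3.3 (Python 3.11.15, NumPy 2.4.6). After rounding of the expected counts, edgeR 4.0.16 under R 4.3.3 was used for the main test (filterByExpr, TMM, quasi-likelihood test, two-sided, Benjamini-Hochberg adjustment over 45928 unigenes, threshold 0.05). DESeq2 1.42.0, which left the adjusted p of 46984 unigenes empty, edgeR's likelihood ratio test and limma 3.58.1 on log2(FPKM + 1) with unigenes at 1 FPKM or more in 3 libraries were alternatives, besides other scalings, pseudocounts and filters, counts summed per cluster, and each library left out in turn. The code was tested on simulated data. Figures were drawn with Matplotlib 3.10.9.

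The members and the lists were chosen with earlier results of these data known. Named with their values were the up to 8 members of highest mean FPKM with at least 10 FPKM, the 3 members of smallest p, the unigene of highest mean CPM and that of smallest p in each list, and the 5 unigenes most like CL5777.Contig3 on log2(CPM + 0.5). For the markers of phloem, of lignified vascular tissue and of senescing leaves, the unigenes of highest mean CPM and of smallest p were named too. Groups came from the phenotype in the labels, which the list of sampling sites in the study shares, although its listing of data accessions words palms 7, 8 and 9 as trunking.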

Additional observations from a re-analysis of the deposited data

How the results depend on the processing

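No paired analysis was possible because the groups share no replicate numbers. Under the alternatives, 285 log2 fold changes were set beside the main values of the 19 named unigenes. With counts summed per cluster, the value counted is that of the whole cluster, so it is no check of a single contig. Of the 285, 255 kept direction and side of the threshold and 27 changed direction. The remaining 3 came to pass the threshold, namely CL9884.Contig1 in DESeq2 and the likelihood ratio test and CL2002.Contig2 in DESeq2. Over all unigenes tested, the quasi-likelihood test called 0, DESeq2 1175, the likelihood ratio test 771, limma 4, and limma without its filter 59. Of the metallothionein-like unigenes, DESeq2 and the likelihood ratio test called 1 each and the other settings 0. The cause of these differences was not tested.

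With each library left out in turn, the log2 fold change ranged from -0.20 to 0.42 for CL5777.Contig3 (from -0.20 to 0.41 as the log2 ratio of its group mean CPM). It ranged from -0.017 to 0.40 for Unigene28615, from -0.81 to 0.23 for Unigene9634 and from -0.12 to 0.38 for Unigene28614. For Unigene9635 it ranged from -0.77 to 0.83 and for CL5614.Contig2 from -0.48 to 0.70. It ranged from -3.14 to -2.09 for CL9884.Contig1, from -2.12 to -0.19 for CL9884.Contig2, from 1.02 to 2.04 for CL10289.Contig2 and from 0.32 to 1.17 for CL7191.Contig1. For CL7171.Contig1 it ranged from -0.10 to 0.11 and for CL4188.Contig3 from -0.22 to 0.63.

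In limma the direction turned for Unigene9635 (0.22 with a pseudocount of 1, with or without its filter, and 0.23 with 0.1), for CL5614.Contig2 (0.016 with a pseudocount of 1, with or without its filter, and 0.018 with 0.1) and for CL7171.Contig1 (-0.039 and -0.040 in the same order). CL7171.Contig1 also turned with library size alone (-0.036). With counts summed per cluster, the log2 fold change was -0.014 for cluster CL7171 and -0.11 for cluster CL4188. These are values of the whole cluster, and not of CL7171.Contig1 or CL4188.Contig3 alone. Depth was even between the libraries, and the spread between palms, with a common coefficient of variation of 0.497 in edgeR, limits the precision of these values.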

Other observations

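The word metallothionein also stood in the KOG column alone for 11 unigenes, which the rule does not take. Of these, 10 were named tesmin/TSO1-like proteins in SwissProt, a family of DNA-binding proteins with cysteine-rich motifs, and 1 was GIGANTEA, a protein of the plant circadian clock. GIGANTEA (CL1291.Contig3) had 51.1, 47.9 and 82.7 FPKM in SN7, SN8 and SN9, against 95.2, 71.0 and 77.4 FPKM in ST1, ST4 and ST5. The groups overlapped, and the log2 fold change was -0.40 (adjusted p = 0.720 with edgeR).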
